A study of Drosophila melanogaster with 9 samples.

Results

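The genes that encode the vacuolar proton pump (V-ATPase) were followed through an RNA immunoprecipitation from fly ovaries. A gene was included when its FlyBase symbol, assigned to the ID in the count tables through Ensembl's BDGP6 annotation, starts with Vha. This gave 29 of the 17024 listed gene IDs. The annotation holds 33 such symbols, and the 4 whose current IDs were not matched to an ID in the tables (Vha13, Vha26, Vha44 and VhaAC39-1) are not analysed here. The C, E and G subunits of the pump and the main copy of subunit d are therefore absent from what follows.

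All 9 libraries held poly(A) RNA from ovaries of the genotype aramis::GFP::FLAG, dissected from day 1 to day 3 after eclosion. Aramis is an RNA helicase, here fused to GFP and FLAG tags. The 3 Input libraries came from 10% of the lysate that was kept aside, the 3 IgG libraries from a pulldown with control mouse IgG, and the 3 IP libraries from a pulldown with an antibody against FLAG. Every group carried the tagged transgene, so the background was measured with another antibody and not in untagged ovaries. What drives the transgene is not given in the sources used here, and the design text names Larp where the sample labels name aramis. The labels do not say whether the replicates came from separate flies, so p-values measure the spread between these samples, which may be technical.

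The V-ATPase is a rotary pump that spends ATP to carry protons into endosomes, lysosomes and other compartments, and in some epithelia out across the plasma membrane. Its V1 sector sits in the cytoplasm, where a ring of alternating A and B subunits hydrolyses ATP and turns a central stalk that contains subunits D and F, while subunit H regulates the assembled enzyme. Its V0 sector lies in the membrane, where a ring of the proteolipids c and c'' rotates against subunit a, subunit d couples the ring to the stalk, and subunit e and the accessory protein AC45 belong to the membrane part. In flies most subunits have several gene copies, of which one is used in most tissues and others are known from the testis or from other restricted sites.

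Libraries held 30533376 to 47080956 counts, and at least 1 count was found for 10966 to 11205 IDs in Input, 7805 to 7929 in IgG and 9700 to 9985 in IP. Ovarian markers were present throughout: 6 germline genes summed to 5902 to 6963 CPM (read counts scaled to library size with TMM factors) and 8 follicle cell and yolk genes to 21950 to 44136 CPM. Of the organs with known high pump expression, 8 midgut genes summed to at most 0.747 CPM, and 5 of 7 Malpighian tubule genes averaged under 1 CPM in Input. The 7 summed to 38.7 to 41.1 CPM in the Input libraries, of which Alp4 averaged 36.3, and to 21.3 to 43.3 (IgG) and 41.6 to 48.2 CPM (IP). The 5 testis genes reached at most 0.633 CPM. Muscle genes (9 measured) summed to 243 to 461 CPM in Input, 644 to 3455 in IgG and 160 to 1106 in IP. Of them, 7 were called higher in IgG than in Input, against 10.3% of all tested genes. The part of muscle or tubule RNA in the results below was not tested.

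Levels in Input fell into separate ranges. The 12 abundant genes lay between 42.3 and 1518 CPM on average, Vha68-1 alone was intermediate at 2.74 CPM, and the 16 rare genes lay at or below 0.146 CPM (limits of 10 and 1 CPM). The abundant genes supplied 99.8% to 99.9% of all Vha counts in each library. All 10 measured genes known as the general copy of their subunit were among them, joined by VhaM9.7-c and Vha100-1. In bulk ovaries, fewer cells that express a gene and less RNA per cell cannot be told apart.

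Per kilobase of exon, Vha16-1, the proteolipid c of the rotating ring, was the most abundant at 493 CPM per kb, above every other Vha gene in every Input library. Vha55 (subunit B, 237 CPM per kb) and Vha68-2 (subunit A, 227) followed, and their Input libraries overlapped. The ratio of Vha68-2 to Vha55 per kb was 0.961, 0.948 and 0.967 in Input replicates 1, 2 and 3. IgG gave 0.871, 0.873 and 0.925 and IP gave 0.934, 0.908 and 0.980, so the ratio of these catalytic ring transcripts lay from 0.871 to 0.980. All IgG ratios were below all Input ratios, and IP overlapped both. In a two-sided exact permutation test over libraries, IgG against Input had p = 0.10, the smallest that 3 against 3 allows (0.30 adjusted over 9 tests). IP gave 0.50 against Input and 0.20 against IgG. VhaPPA1-1 (c'', 143), VhaAC45 (131) and Vha14-1 (F, 122) came next, each overlapping its neighbour in that order. Vha100-2 (a, 110) and Vha36-1 (D, 99.6) did not overlap each other. VhaM9.7-b (e, 70.8) overlapped VhaSFD (H, 70.7), and VhaM9.7-c (49.9) and Vha100-1 (29.9) stood below both without overlap. Vha68-1 was at 1.02 CPM per kb, and from VhaPPA1-2 (0.156) downward all neighbours overlapped.

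**Figure D1:**
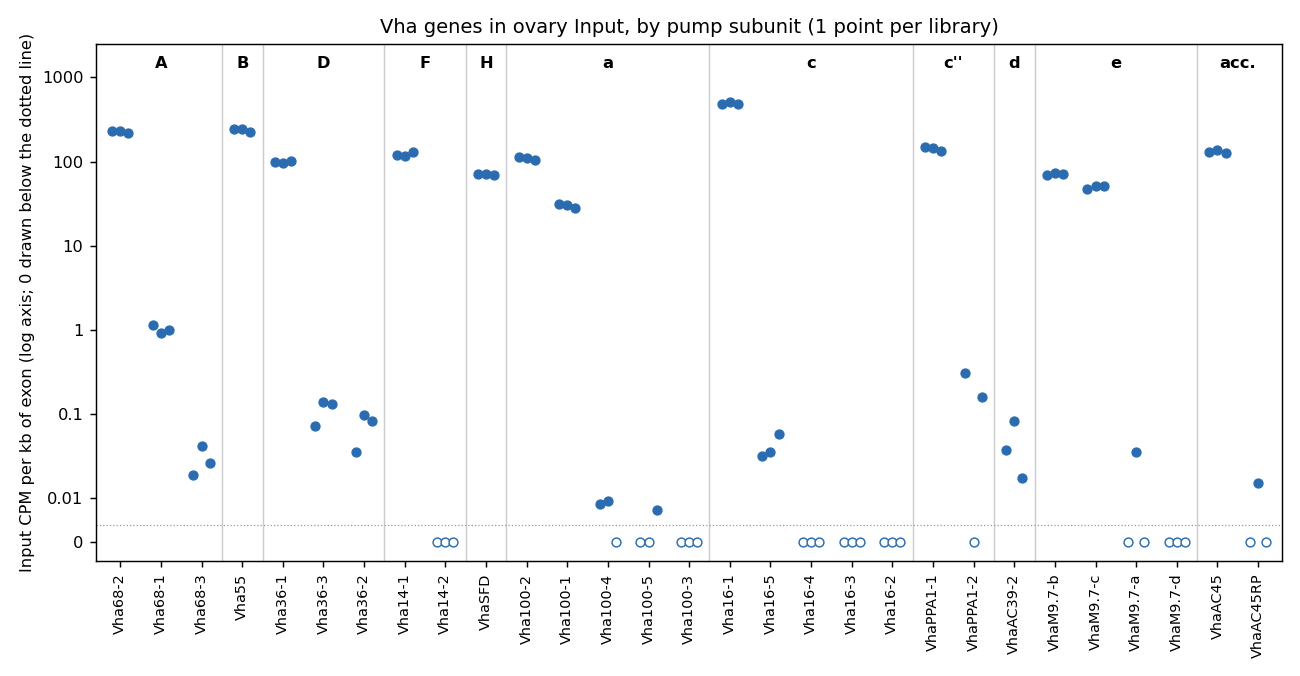
CPM per kb of exon (log axis, with 0 drawn below the dotted line) of all 29 Vha genes in the 3 Input libraries, grouped by pump subunit (acc., accessory). In each subunit class with an abundant gene, 1 copy stood far above the rest except in classes a and e, where a second copy, Vha100-1 (29.9) or VhaM9.7-c (49.9), was also abundant, though below all 10 measured general copies.

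The copies of a subunit could be separated by sequence to different degrees, which bears on how their reads were counted. Between Vha68-1 (2L, 13000770 to 13004107) and Vha68-2 (2L, 12974322 to 12978607), 86.2% of 1842 aligned coding bases were identical, and 92 of the 2432 different 50-base stretches in the exons of Vha68-1 (3.78%) also occurred elsewhere in the genome. The longest shared run, of 83 bases, is shown with 12 bases on either side, and capitals mark the 3 bases at which the copies differ.
Vha68-1: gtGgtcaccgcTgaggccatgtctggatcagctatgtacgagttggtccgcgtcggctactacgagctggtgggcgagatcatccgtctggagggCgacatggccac
Vha68-2: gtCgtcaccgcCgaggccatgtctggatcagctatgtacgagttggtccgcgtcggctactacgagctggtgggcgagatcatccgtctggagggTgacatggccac
Since Vha68-2 supplied 99.5% of class A reads per kb in Input, the low count of Vha68-1 is uncertain to the extent that reads from such runs were assigned to it. The e copies, in contrast, shared 61.0% of aligned coding bases. The first 90 coding bases of VhaM9.7-b (3L, 21539862 to 21541215) and the aligned 85 of VhaM9.7-c (3L, 4186018 to 4186865) are shown with the 47 identical bases in capitals.
VhaM9.7-b: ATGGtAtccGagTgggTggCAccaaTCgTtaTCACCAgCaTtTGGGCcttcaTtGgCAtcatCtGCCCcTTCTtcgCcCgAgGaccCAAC
VhaM9.7-c: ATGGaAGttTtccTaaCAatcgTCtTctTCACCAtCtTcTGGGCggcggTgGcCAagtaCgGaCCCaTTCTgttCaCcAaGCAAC
No 50-base stretch of VhaM9.7-c, Vha100-1 or Vha100-2 occurred elsewhere in the genome, and of VhaM9.7-b 1 of 1070 did (0.093%).

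The comparison of IP with Input asked which transcripts were over- or under-represented in the FLAG pulldown relative to the lysate. Of the 14 Vha genes with enough counts to be tested, 4 rose (VhaPPA1-1, Vha14-1, VhaM9.7-b and VhaAC45) and 3 fell (Vha100-1, VhaM9.7-c and Vha100-2), with edgeR's quasi-likelihood test and an adjusted p under 0.05. Among all 8789 genes tested, 28.5% were called higher and 30.8% lower, so both shares of the Vha genes lay near those of all genes. The median log2 fold change was 0.12 over the 14 Vha genes and 0.0058 over all genes. Of 7 tested genes of the V0 sector and its accessory protein, 3 rose, 3 fell and 1 was not called, whereas Vha14-1 was the only call among 7 genes of the V1 sector. All 7 V1 fold changes were positive, against 3 of 7 in V0. The V1 genes include Vha68-1 and Vha36-3, which had few counts and wide standard errors (0.37 and 0.82), whereas all tested V0 genes were abundant. Vha36-3 had enough counts for testing in pulldown libraries only, which favoured its positive sign in advance. The difference between the sectors was not tested, and the V1 calls depended on the scaling of libraries, as given below.

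VhaPPA1-1, the c'' proteolipid, had the largest called change. Input replicates 1, 2 and 3 measured 203, 195 and 182 CPM, the IgG replicates 319, 356 and 384, and the IP replicates 428, 450 and 448. Input was lowest and IP highest, without overlap. The log2 fold change of IP over Input was 1.19 ± 0.056 (SE, n = 3 in each group, edgeR adjusted p = 1.5e-07). Vha14-1, subunit F of the central stalk, measured 78.2, 77.3 and 84.8 CPM in Input, 145, 131 and 170 in IgG, and 151, 147 and 157 in IP. Both pulldowns exceeded Input in every library, whereas the IP values lay inside the IgG range (IP over Input 0.92 ± 0.058, adjusted p = 8.75e-07). VhaM9.7-b, the more abundant e subunit copy, measured 83.6, 88.6 and 86.2 CPM in Input, 96.5, 135 and 150 in IgG, and 139, 143 and 146 in IP. Here too all IP libraries exceeded all Input libraries (0.72 ± 0.053, adjusted p = 2.2e-06). VhaAC45, which encodes the accessory membrane protein AC45, measured 265, 273 and 254 CPM in Input, 421, 470 and 399 in IgG, and 439, 433 and 389 in IP. Its pulldown values overlapped each other and stood above Input (0.67 ± 0.059, adjusted p = 7.79e-06). These 4 rises were called under every alternative setting that was run.

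Among the genes that fell, Vha100-1, a copy of the membrane subunit a, measured 102, 99.6 and 93.3 CPM in Input, 72.5, 87.3 and 71.2 in IgG, and 68.7, 74.6 and 80.0 in IP. All IP libraries lay below all Input libraries (-0.40 ± 0.071, edgeR adjusted p = 0.000777), and this call also held under every alternative. VhaM9.7-c, the second e copy, measured 40.0, 43.4 and 43.6 CPM in Input, 34.1, 52.9 and 39.2 in IgG, and 31.3, 33.7 and 38.6 in IP. Its IP and Input values did not overlap (-0.30 ± 0.095, adjusted p = 0.0211), and the IgG values overlapped those of both. Vha100-2, the main copy of subunit a, measured 367, 358 and 336 CPM in Input, 273, 253 and 277 in IgG, and 317, 322 and 266 in IP (-0.23 ± 0.076, adjusted p = 0.0225). Leaving out single libraries ended the call of VhaM9.7-c in 4 cases (without IP replicate 1 or 2, or Input replicate 2 or 3, adjusted p from 0.0504 to 0.0764) and that of Vha100-2 in 2 (without Input replicate 1 or 2, 0.0932 and 0.0708). Both calls also ended with library totals in place of TMM (adjusted p of 0.0757 and 0.162) and in a joint fit of all 9 libraries (0.269 and 0.0668). The planned exon length offset ended that of VhaM9.7-c (adjusted p = 0.228, or 0.204 with the replicate block).

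The main copies of the other measured V1 subunits were close to Input in the pulldowns. Vha55 measured 677, 680 and 625 CPM in Input, 745, 687 and 683 in IgG, and 709, 769 and 703 in IP (0.13 ± 0.059, adjusted p = 0.0774), and with the replicate number as a block its adjusted p was 0.0422. Vha68-2 measured 644, 638 and 599 CPM in Input, 642, 594 and 626 in IgG, and 656, 692 and 682 in IP (0.11 ± 0.053, adjusted p = 0.112). Vha36-1, subunit D of the stalk, measured 106, 103 and 110 CPM in Input, 94.8, 116 and 124 in IgG, and 120, 113 and 111 in IP (0.11 ± 0.055, adjusted p = 0.123). VhaSFD, the regulatory subunit H, measured 203, 203 and 194 CPM in Input, 181, 209 and 251 in IgG, and 224, 219 and 208 in IP (0.11 ± 0.049, adjusted p = 0.0719). In each of these 4 genes the IP libraries stood above the Input libraries without overlap, but how many of all genes separated in this way was not counted. With library totals in place of TMM all 4 were called higher (edgeR adjusted p from 0.00674 to 0.0116), which made 8 Vha genes up and 1 down, while the median of all genes moved to 0.10. That setting called 5256 of all 8789 tested genes, and 56.0% of those were higher. Without IP replicate 3, 11 of the 14 genes were called, with 7 up and 4 down, as were 5441 of all 8789 genes.

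**Figure D2:**
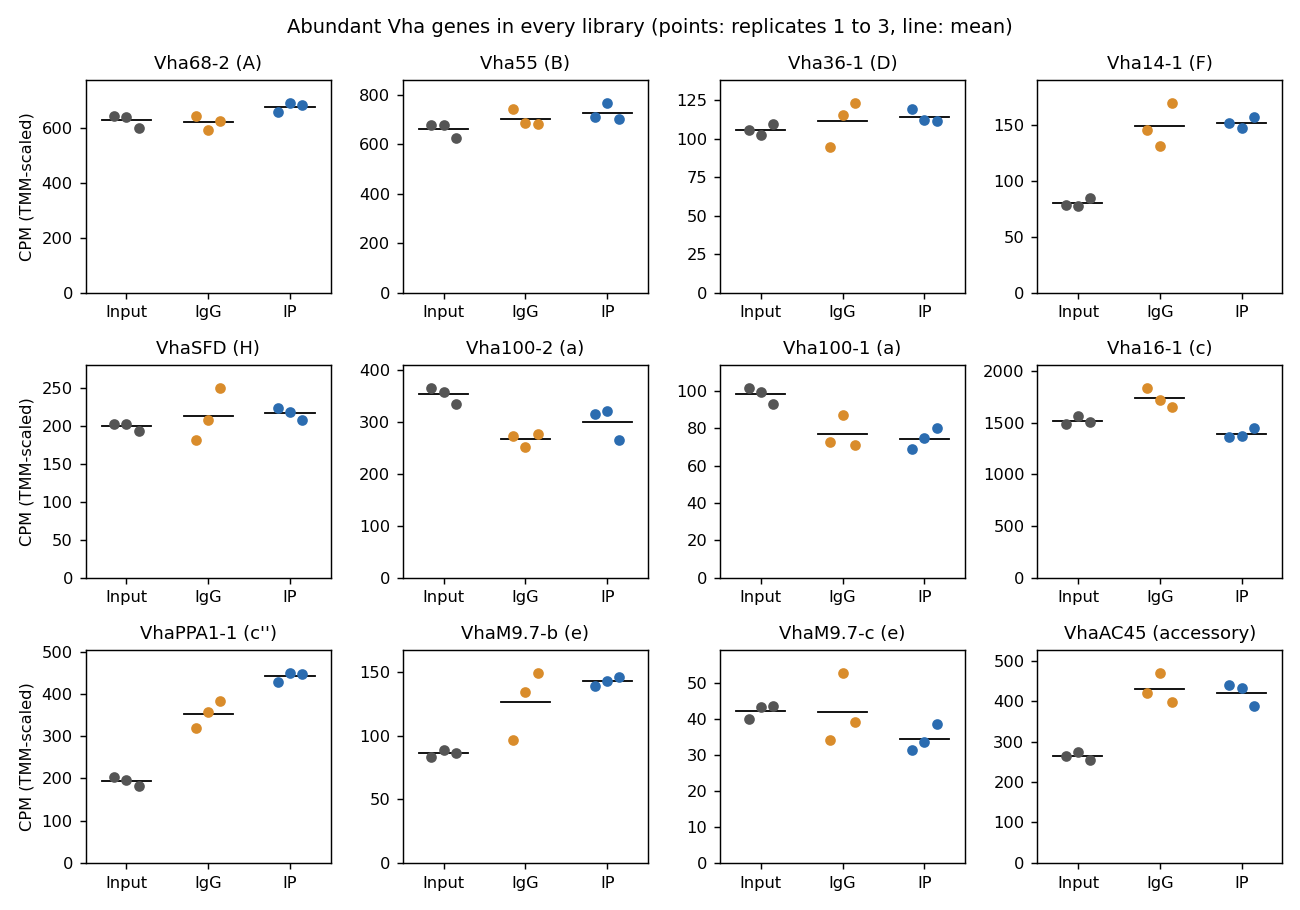
TMM-scaled CPM of the 12 abundant Vha genes (subunit in brackets) in every library, with replicates 1 to 3 as points and the group mean as a line on axes that start at 0. VhaPPA1-1, Vha14-1 and VhaAC45 were higher in both pulldowns than in Input, whereas Vha16-1 was highest in IgG and lowest in IP.

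IgG against Input measured what a pulldown without the FLAG antibody recovered. Vha14-1 (0.89 ± 0.12), VhaPPA1-1 (0.87 ± 0.094), VhaAC45 (0.70 ± 0.080) and Vha16-1 (0.19 ± 0.056) rose in log2 fold change, with edgeR adjusted p of 0.00597, 0.00317, 0.00359 and 0.0465. Vha100-2 fell by 0.41 ± 0.071 (adjusted p = 0.0122). Thus 4 of 14 genes were called higher and 1 lower, where 10.3% and 16.6% of all tested genes were. IP over Input uses the same Input libraries, in which VhaPPA1-1, Vha14-1 and VhaAC45 were likewise lower than in the pulldown. VhaM9.7-b was at 0.56 ± 0.17 (adjusted p = 0.0571) and Vha100-1 at -0.35 ± 0.12 (adjusted p = 0.0771), both without overlap between the groups. The replicate block ended the call of Vha16-1 (adjusted p = 0.0813) and added VhaM9.7-b (0.0204). Without Input replicate 1, or without Input replicate 2, 3 genes were called in place of 5, since Vha16-1 and Vha100-2 passed in neither. The call of Vha16-1 also ended without Input replicate 3, IgG replicate 1 or IgG replicate 2, with library totals and with a filter of at least 1 count (adjusted p from 0.0568 to 0.615).

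IP against IgG, which sets the FLAG antibody against the control antibody, separated few Vha genes. None was called higher and only Vha16-1 was called lower with edgeR, and DESeq2 called 2 (1 higher, 1 lower). An unadjusted edgeR p under 0.05 was found for 2 of the 14 genes, against 2402 of all 8789. Over all tested genes 4.77% were higher and 3.20% lower with edgeR, and DESeq2 called 1376 of 8789. Vha16-1 measured 1487, 1560 and 1508 CPM in Input, 1837, 1722 and 1651 in IgG, and 1362, 1373 and 1447 in IP. All IgG libraries were above, and all IP libraries below, those of Input, and IP over IgG was -0.29 ± 0.066 (adjusted p = 0.0328). IP over Input was -0.13 ± 0.054 (adjusted p = 0.0652). The call in IP over IgG ended without IgG replicate 1 or 2 or any 1 of the IP replicates (adjusted p from 0.0521 to 0.182) and when libraries were scaled by their totals (0.51). VhaPPA1-1 was at 0.35 ± 0.092 (adjusted p = 0.0559), with the IP libraries above all IgG libraries. Its adjusted p was 0.00899 with the replicate block. Direct correlations did not show that the replicate numbers pair IP with IgG, although both groups followed Input by number, as given below. The other 10 abundant genes had log2 fold changes from -0.26 to 0.20 with adjusted p of 0.209 or more. Consequently, no Vha gene was called higher in IP against both Input and IgG (4.13% of all tested genes were) and none lower than both (2.56%). Under 7 other settings VhaPPA1-1 was called higher than both, and under 3 Vha16-1 was called lower than both. The shares of all genes under those settings were not counted.

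**Figure D3:**
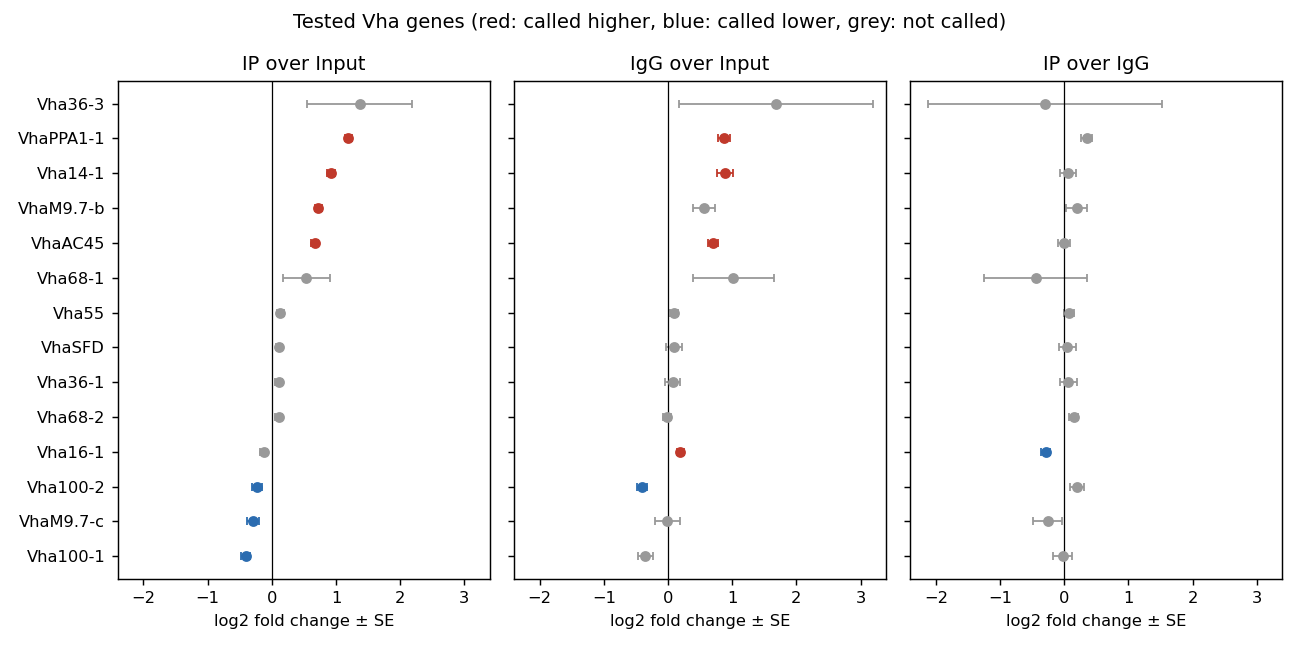
Log2 fold change with its standard error of the 14 tested Vha genes in the 3 comparisons, ordered by IP over Input. There were 4 rises and 3 falls in IP over Input, 4 rises and 1 fall in IgG over Input, and in IP over IgG only Vha16-1 (-0.29) was called.

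**Figure D4:**
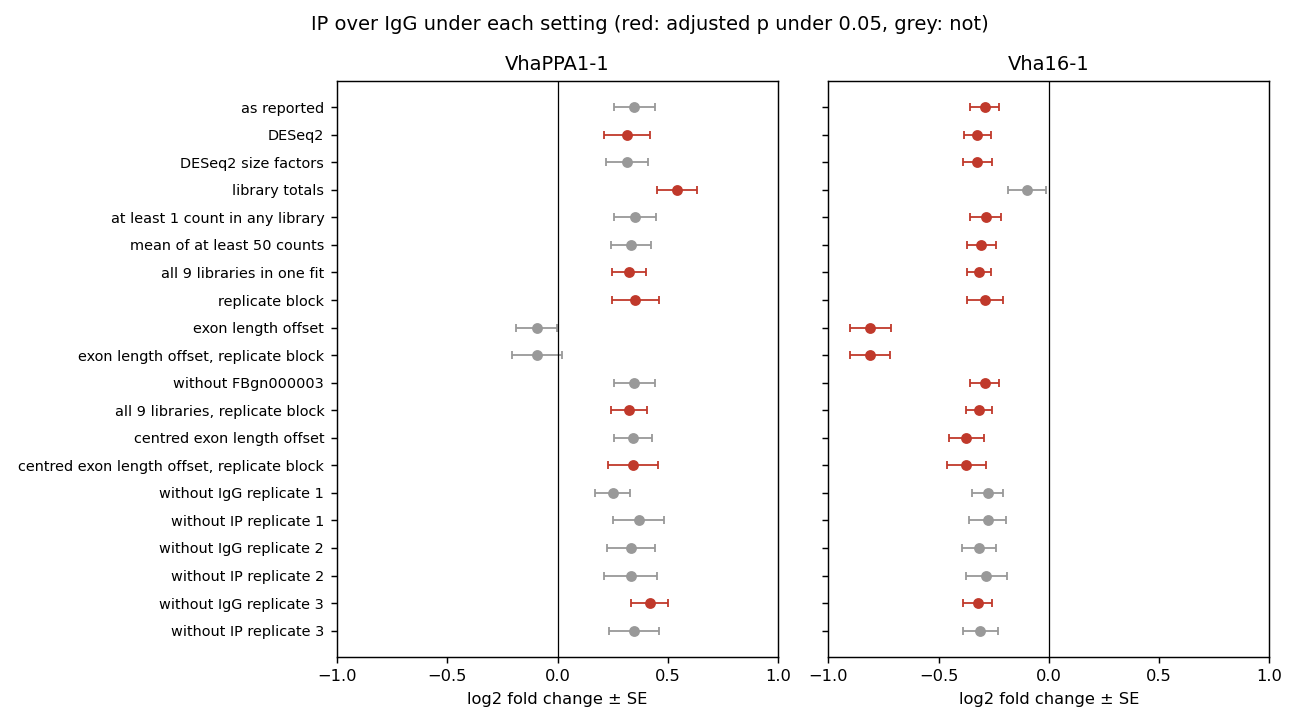
Log2 fold change of IP over IgG, with its standard error, of VhaPPA1-1 and Vha16-1 as reported and under each alternative setting. VhaPPA1-1 was positive except with the exon length offsets that were not centred (-0.09), and Vha16-1 was negative in all settings shown, from -0.81 to -0.10.

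Shares within a subunit class do not depend on how libraries are scaled, and were therefore set side by side. Of the e subunit reads per kb, VhaM9.7-c supplied 40.7%, 41.3% and 42.0% in Input replicates 1, 2 and 3, 33.6%, 36.0% and 27.3% in IgG, and 24.4%, 25.2% and 27.5% in IP. Both pulldowns were below Input in every library, and IP and IgG overlapped. Mean shares were 41.3% ± 0.673 for Input, 32.3% ± 4.50 for IgG and 25.7% ± 1.58 for IP (SD, n = 3). In an exact permutation test over libraries (two-sided) the difference between IP and Input had p = 0.10, the smallest that 3 against 3 allows, and 0.30 after adjustment over 9 such tests. IgG against Input gave the same values, and IP against IgG gave an exact p of 0.20. Of the subunit a reads, Vha100-1 supplied 21.4% ± 0.0148 in Input, 22.0% ± 2.85 in IgG and 19.6% ± 2.80 in IP, and the exact p was 0.40 or more in each comparison. These classes were examined after their values had been seen.

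**Figure D5:**
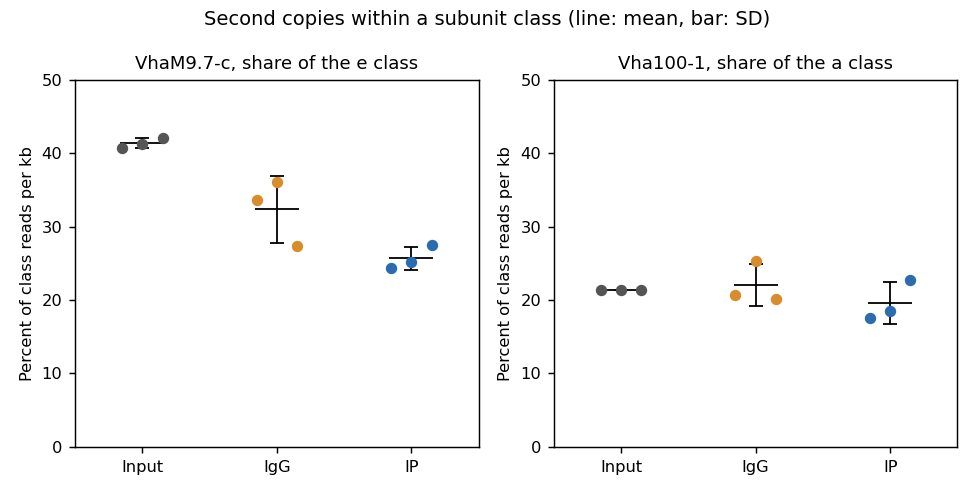
Share of the reads per kb of its subunit class that came from VhaM9.7-c and from Vha100-1, in percent, with 1 point per library, the mean as a line and the SD as a bar. VhaM9.7-c was at 40.7% to 42.0% in Input and 24.4% to 27.5% in IP, and Vha100-1 showed no such separation.

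The rare copies were near or below the limit of detection, where 3 counts correspond to 0.0636 to 0.112 CPM, whereas the intermediate Vha68-1 was well above it. Vha68-1, a catalytic subunit A copy, had 134, 98 and 125 counts in Input, 181, 180 and 199 in IgG, and 207, 197 and 87 in IP, and was called in none of the comparisons (edgeR adjusted p of 0.237, 0.30 and 0.802). Without IP replicate 3 it was called higher in IP over Input (0.87 ± 0.23, adjusted p = 0.0101, against 0.54 ± 0.37 with that library). Vha36-3, a D copy on the X chromosome and the only rare gene that was tested, had 4, 7 and 8 counts in Input, 0, 15 and 37 in IgG, and 11, 6 and 32 in IP. Its groups overlapped in every comparison (adjusted p of 0.18 or more). Without IgG replicate 1, the IgG library that held none of its reads, it was called higher in IgG than in Input (adjusted p = 0.0342). All its Input counts were below the minimum count set for testing, so only pulldown libraries brought the gene into the test. That choice favoured a rise over Input in advance, and no conclusion is drawn from this call. VhaAC39-2, the only measured copy of subunit d, had 2, 4 and 1 counts in Input and 0 in every IgG and IP library. VhaPPA1-2 was not counted in any IgG library, whereas Input had 9, 0 and 5 counts and IP 2, 17 and 5. Single libraries held most counts of Vha16-5 (21 in IP replicate 2, at most 2 elsewhere) and of Vha68-3 (16 in IP replicate 3, at most 4 elsewhere). Vha36-2 had 2, 5 and 5 counts in Input and none in the pulldowns. No count was found for 6 genes (Vha14-2, VhaM9.7-d, Vha16-2, Vha16-3, Vha16-4 and Vha100-3) in any of the 9 libraries. The 16 rare genes together had 21 to 25 counts in each Input library, 0 to 37 in IgG and 13 to 53 in IP.

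The genes that rose in IP over Input had exons of 659 to 2013 bases (median 1284), those that fell 848 to 3289 (median 3222) and the others 1064 to 3077 (median 2759). Over the 14 genes, which share all libraries, the log2 fold change of IP over Input and exon length had a Spearman correlation of -0.51, against 0.16 over 8574 genes with a length. In IP over IgG it was -0.0066 over the 14 genes and 0.30 over all genes. With the loess offset on exon length centred in each library, an alternative added after the data were seen, IP over Input again gave the same 7 calls, with Vha36-1 in addition (the planned offset, not centred, ended the call of VhaM9.7-c, as above, and added Vha55, Vha36-1 and VhaSFD), and Vha16-1 remained the only call in IP over IgG.

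Start regions were searched for 6 short motifs on both strands, from 250 bases upstream of the canonical transcript start to 50 downstream. The sequence CATGTG, a form of the E-box to which MITF-type factors can bind, occurred in 5 of the 12 abundant genes and 1 of the other 17, against 9.66% of 8250 tested protein-coding genes. It lay in all 4 genes that rose in IP over Input, close to the start (first base 10 bases upstream for VhaAC45, and 2, 23 and 35 bases downstream for Vha14-1, VhaM9.7-b and VhaPPA1-1), and at 2 places further upstream in Vha16-1. Over all tested genes the motif was about as frequent among those called higher in IP over Input (10.2% of 2382), lower (9.21% of 2595) and neither (9.66% of 3273). Windows are shown in the sense direction of each gene from the BDGP6 genome, VhaPPA1-1 at chr3R:14904012-14904038 (minus strand) and VhaM9.7-b at chr3L:21539873-21539902 (plus strand), with the motif in capitals.
VhaPPA1-1: gaaaatgtacgtCATGTGattgtggat
VhaM9.7-b: ggacatgtccgtCATGTGatattcgttgct
CACGTG, the other E-box form, occurred in 0 of the 12 abundant genes and 2 of all 29 (4.26% of 13629 protein-coding genes), and its extended form TCACGTGA in none (0.169%). TATCGATA occurred in 2 of the 29 (8.81% of all), ATCGAT, which it contains, in 7 (22.7%) and TATAAA in 14 (45.4%). A match is a stretch of letters and not a binding site, and CATGTG was singled out after the results were known.

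Genes that work with the pump were taken from 3 lists. Of 11 tested regulators, assembly factors and partner channels, 6 rose and 4 fell in IP over Input, where 28.5% and 30.8% of all tested genes did, and Rbcn-3A, whose product promotes pump assembly, was the only one called in IP over IgG (0.62, edgeR adjusted p = 0.0291), where 4.77% of all genes were higher and 3.20% lower. Rbcn-3A was also called higher in IP over Input (0.27, adjusted p = 0.0308), though the libraries of those groups overlapped. Rbcn-3B, its partner, rose by a log2 fold change of 1.16 in IP over Input (adjusted p = 2.39e-07) and of 0.59 in IgG over Input (adjusted p = 0.0435). Mitf, the transcription factor that controls lysosomal and pump genes, fell from 348 CPM in Input to 67.6 in IP and 86.1 in IgG (log2 fold changes of -2.37 and -2.02, adjusted p of 0.000207 and 0.00019). Of 21 lysosomal genes, 8 rose and 9 fell in IP over Input, against the same shares of all genes, and only spin, a lysosomal transporter, was called in IP over IgG (0.56, adjusted p = 0.0411). Among 8 genes of the lysosomal TORC1 dock, 5 rose and 2 fell in IP over Input (28.5% and 30.8% of all genes) and none was called in IP over IgG (4.77% and 3.20%), and raptor, the TORC1 scaffold, averaged 112 CPM in Input against 16.1 (IgG) and 14.6 (IP). For IgG over Input the 3 lists gave 3 up and 2 down, 2 up and 0 down, and 1 up and 1 down, against 10.3% up and 16.6% down over all tested genes.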

How the data were processed

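For each of 9 libraries the authors deposited a table of raw read counts by FlyBase gene. The submitters' processing notes name HISAT2 2.1.0, featureCounts 1.4.6 and the dm6 genome. How reads matching several genes, and the strand of the directional libraries, were treated at counting is not given in the sources used here. IDs were named from Ensembl's BDGP6 annotation (16647 of 17024; 377 without a name), which is the same assembly as dm6, and sequences were read from the RefSeq copy of that genome. One row, under the incomplete ID FBgn000003, stayed in the tests and took 5.89% to 14.6% of the counts in IgG, 0.684% to 1.04% in IP and at most 0.0612% in Input.

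Groups were taken from the immunoprecipitation label. Each pair of groups was compared over its 6 libraries with edgeR 4.0.16 in R 4.3.3 (TMM scaling, robust quasi-likelihood F test, two-sided). The 8789 genes that passed edgeR's expression filter (minimum count 10) were fitted, p-values were Benjamini-Hochberg adjusted over all of them, and genes with an adjusted p under 0.05 were called. Standard errors were derived from the F statistic. CPM was scaled by TMM over the 9 libraries. The fits were also run on simulated counts that held no pairing of replicates, and the outcome is not given here. Floors of 3 counts cover counting error only. Coding sequences were aligned with Biopython 1.88, and exact tests used SciPy 1.17.1.

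Values in all 9 libraries were given for the most abundant copy of each subunit and for the called genes with the largest changes, and the other genes by count and range. The members and lists were chosen with earlier results of these data known. Replicate numbers in the titles are shared between groups. Each library's departure from its group mean, in log2(CPM + 1), was correlated between libraries of different groups. Same-numbered libraries had r of 0.37, 0.33 and 0.47 for IP and Input and 0.11, 0.10 and 0.24 for IgG and Input. These exceeded every r between differently numbered libraries (at most 0.034 and 0.076). For IP and IgG the same-numbered r was 0.11, 0.037 and 0.25 and the others reached 0.12, so these correlations alone did not show such a pairing. Both groups did follow Input by number, however, and Uro was nearly absent from replicate 2 of every group, as given above. The reported fits used the group alone, and the replicate number entered only with the replicate block. Replicates differed by more than counting noise in every group, so none was counted as a duplicate. Alternatives were DESeq2 1.42.0, its size factors, library totals over the tested genes, filters of at least 1 count or a mean of 50, a joint fit of all 9 libraries, the replicate block, a loess offset on exon length (span 0.3), removal of FBgn000003 and each library left out in turn.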

Additional observations from a re-analysis of the deposited data

How the results depend on the processing

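Where no setting is named here, counts of called Vha genes stayed within 1.5 times their values. In IP over Input, 7 genes were called, as were 5206 of all 8789 tested genes. DESeq2 called 11 (5386 of all genes), and leaving out single libraries gave 5 to 11 (4538 to 5441 of all). In IP over IgG, 1 gene was called; DESeq2, library totals, a joint fit of all 9 libraries, the replicate block, and that joint fit or the centred length offset combined with the block gave 2 each, and leaving out single libraries gave 0 to 2. Over all 8789 genes, IP over IgG called 700, against 880 to 2014 in the settings that gave 2 and 295 to 930 with single libraries left out. In IgG over Input, 5 genes were called (2364 of all genes), and leaving out single libraries gave 3 to 6 (446 to 3306 of all). For genes called higher in IP against both Input and IgG (0 as reported), DESeq2, the joint fit, the replicate block, the joint fit with the block and the centred length offset with the block gave 1, library totals gave 2 (VhaPPA1-1 and Vha68-2), and single libraries left out gave 0 to 1. For genes lower than both (0 as reported), DESeq2, the filter of at least 1 count and the centred length offset with the block gave 1. The shares of all tested genes higher or lower than both (4.13% and 2.56%) were counted for the reported fits only. The counts under other settings therefore have no share of all genes to be read against. The replicate block changed no other call than those of Vha55, VhaM9.7-b, Vha16-1 and VhaPPA1-1 given above.

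The exon length offset as first planned moved the median log2 fold change of all genes to -0.43 in IP over IgG and 0.47 in IgG over Input. It called 5 Vha genes lower in IP over IgG and 9 higher in IgG over Input, with or without the block. Of all 8789 genes, 1975 and 3539 were then called in either direction (2243 and 2913 with the block). The offset turned Vha100-2 in IgG over Input to 0.11 (0.10 with the block), which is below the median of all genes. The centred form, the joint fit with the block and the centred form with the block were added after the data were seen. Library totals moved the median of all genes to 0.22 in IP over IgG and -0.14 in IgG over Input. Of all genes called in IP over IgG, 59.9% were higher, against 86.2% with library totals, 6.43% with the planned and 30.4% with the centred offset. In IgG over Input the share was 38.4%, against 25.8% with library totals, 77.5% with the planned offset and 49.7% with DESeq2. The IgG libraries varied most, with a common biological coefficient of variation of 0.55 in IgG over Input and 0.60 in IP over IgG, against 0.15 in IP over Input. Among all genes, IgG over Input called 446 to 490 without an Input replicate, in place of 2364, and the joint fit called 2778 in IP over Input in place of 5206 and 2014 in IP over IgG in place of 700.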
